A study of Mus musculus with 17 samples.

Results

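Among the miRNAs measured in mouse serum, miR-339-3p, miR-326-3p and miR-489-3p (assays mmu-miR-339-3p, mmu-miR-326-3p and mmu-miR-489-3p) were chosen by their mean levels, which stood higher in Autotaxin-transgenic mice with tumors than in transgenic mice without them. They were matched by assay name and make up 3 of the 357 miRNA assays. Serum was compared between 7 AT-ATX transgenic mice with spontaneous tumors, 7 AT-ATX transgenic mice with no tumors and 3 healthy wild-type FVB/N mice. Autotaxin is the secreted enzyme that makes the lipid signal lysophosphatidic acid. The labels give neither the promoter of the transgene nor its strain background, and they state no age, sex or tumor site. The label of tumor replicate 5 names tumors and has a question mark after the letter F, where the other labels have a number. This mouse was kept in the tumor group. Because the choice of the 3 miRNAs rested on the comparison of tumor with tumor-free mice, their values in that comparison are given as a description with no test. The tumor and tumor-free mice also entered that choice when they are set against wild-type mice, which did not enter it, so those tests are not fully independent of it.

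A miRNA is cut as a duplex from a hairpin RNA, and 1 or both arms of the duplex can be kept as mature miRNAs that repress mRNAs paired to the seed, bases 2 to 8. In serum, miRNAs are carried in vesicles, lipoproteins and protein complexes, and they can come from blood cells as well as from solid tissues. Whether more cells released a miRNA or each cell released more of it cannot be told apart in serum. miR-326 lies in an intron of Arrb1, the gene of beta-arrestin 1, and is known in mouse for promoting Th17 T cells by repressing Ets1. miR-489 lies in an intron of Calcr, the calcitonin receptor gene, and is known in mouse for holding muscle stem cells in quiescence. The other arm of miR-339, miR-339-5p, was reported in human cells to repress MDM2, the ubiquitin ligase that limits p53.

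The mature sequences are shown, from RefSeq with GRCm38.p6 coordinates, because the seeds decide which other assays are related to the 3 miRNAs. Each is written 5′ to 3′ with the seed in capitals.
miR-339-3p: uGAGCGCCucggcgacagagccg
miR-326-3p: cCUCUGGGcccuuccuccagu
miR-489-3p: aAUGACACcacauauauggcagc
miR-339-5p: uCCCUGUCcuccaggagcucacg
miR-330-5p: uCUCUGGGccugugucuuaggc
miR-339-3p is at chr5:139369673-139369695 on the minus strand, within the span of the gene 3110082I17Rik. miR-326-3p is at chr7:99552328-99552348 on the plus strand, within Arrb1, and miR-489-3p is at chr6:3721922-3721944 on the minus strand, within Calcr. The 3 seeds differ from each other. No other mature mouse miRNA in the table shares the seed of miR-339-3p, while miR-326-3p shares its seed with miR-330-5p, which was not analysed here, and miR-489-3p shares its seed with miR-425-5p, which was measured. miR-339-3p and miR-326-3p are rich in G and C, at 73.9% and 66.7% of their bases, and miR-489-3p has 43.5%. The hairpin of miR-489 lies 511 bases from that of miR-653, which was not analysed here.

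Each level is the quantification cycle (Ct) averaged over the 252 miRNA assays with a value in all 17 mice, less the miRNA's own Ct. This is a log2 scale on which 1 more unit means close to 2 times more template, relative to the panel and not per volume of serum. All 3 miRNAs were detected in all 17 mice, and 338 assays detected often enough in every group were tested. Tumor mice had 312 to 356 miRNA assays detected, tumor-free mice 330 to 356 and wild-type mice 340 to 355. The mean Ct of the shared assays ran from 28.0 to 31.7 in tumor mice, 28.1 to 30.5 in tumor-free mice and 27.0 to 30.0 in wild-type mice. Hemolysis was indexed as the cycles by which the red blood cell miRNA miR-451a came up before miR-23a-3p, and ran from 2.21 to 7.09, from 3.56 to 5.54 and from 3.71 to 7.82 cycles in the same groups. The last decimals of the values have 2 endings in 13 mice and 1 ending in tumor replicate 1 and tumor-free replicates 4, 5 and 7, so the differences between tumor and tumor-free mice were also computed within each of these sets.

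miR-339-3p set the groups apart by a small and even shift. Its level in the tumor mice was -2.75 at the lowest, -2.44 at the median and -1.99 at the highest, against -3.91, -3.61 and -3.09 in the tumor-free mice. All 7 tumor mice lay above all 7 tumor-free mice. This was the only 1 of the 338 tested assays (0.296%) with that separation, which comes from the contrast behind the choice of the miRNA. In the other direction, 3 assays (0.888%) had every tumor mouse below every tumor-free mouse. Levels averaged -2.40 ± 0.26 in the tumor mice, against -3.55 ± 0.34 in the tumor-free group (SD, n = 7 each), a log2 difference of 1.15 (SE 0.28), or 2.22-fold. Among the tumor mice its SD was the smallest of the 338 tested assays, and among the tumor-free mice its SD ranked 313 of 338 from the largest. Within the mice whose values have 2 endings the difference was 1.33 (6 tumor, 4 tumor-free mice), and within those with 1 ending it was 1.11 (1 tumor, 3 tumor-free mice). On unscaled Ct the groups overlapped, with 30.7 to 33.8 cycles in tumor mice and 32.0 to 34.4 cycles in tumor-free mice.

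Set against wild-type mice, the tumor-free mice all had lower levels of miR-339-3p, and the tumor mice overlapped the wild-type mice. The wild-type levels were -2.44, -3.07 and -2.80. The 7 tumor-free mice all lay below the 3 wild-type mice, as they did for 20 of the 338 assays (5.92%), with a log2 difference of -0.78 (SE 0.37, limma adjusted p = 0.20). Of the 7 tumor mice 4 lay above all 3 wild-type mice, with a difference of 0.37 (SE 0.37, limma adjusted p = 0.59). Neither comparison passed at an adjusted p of 0.05. With raw Ct as the scaling, minus the Ct was used, so that higher means more template. The difference of tumor from wild-type mice turned its sign with the scaling, at -1.01 with raw Ct and -0.90 with spike-ins. Those scalings shift the whole panel: the median difference of all 338 assays was -1.22 with raw Ct and -1.08 with spike-ins, against 0.19 with the panel mean, so miR-339-3p lay above the median assay under each of the 3.

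**Figure D1:**
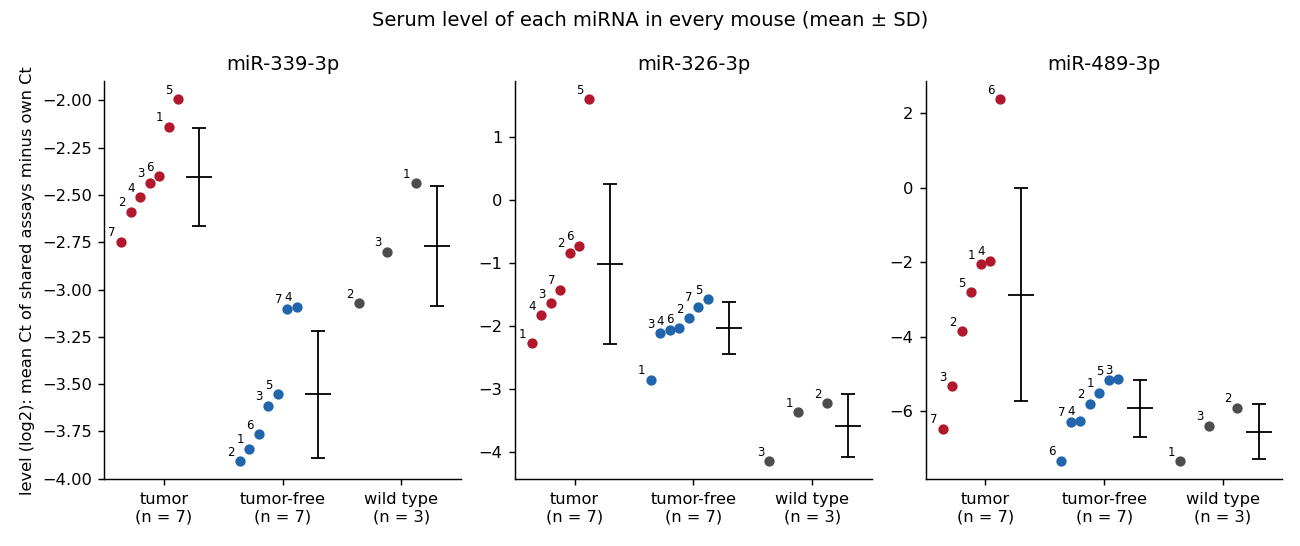
Level of miR-339-3p, miR-326-3p and miR-489-3p (log2, mean Ct of the shared assays minus own Ct) in every tumor, tumor-free and wild-type mouse. Points are mice, numbered by replicate and sorted within a group, and the bar beside each group is its mean ± SD. The tumor mice sit between -2.75 and -1.99 for miR-339-3p, above all tumor-free mice, while for miR-489-3p they spread from -6.47 to 2.38.

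The other arm of the same hairpin, miR-339-5p, showed no detectable difference between the groups. The hairpin is printed to show both arms, in capitals, with the 5p arm first. It lies at chr5:139369650-139369745 on the minus strand.
Mir339 hairpin: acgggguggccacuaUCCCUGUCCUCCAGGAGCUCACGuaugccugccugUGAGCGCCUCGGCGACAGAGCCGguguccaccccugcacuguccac
The level of miR-339-5p ran from -1.36 to 0.87 in tumor mice with a median of -0.02, and from -1.06 to 0.76 in tumor-free mice with a median of 0.12. The groups overlapped almost fully, with a log2 difference of -0.16 (SE 0.40, limma adjusted p = 0.86). The wild-type levels of miR-339-5p were 0.07, -1.14 and -0.62. Against them the tumor mice differed by 0.37 (SE 0.52, limma adjusted p = 0.70) and the tumor-free mice by 0.52 (SE 0.52, limma adjusted p = 0.55).

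Setting 1 arm of miR-339 against the other needs no scaling, because the Ct of both comes from the same serum. The Ct of miR-339-5p minus that of miR-339-3p was -3.27 to -0.90 cycles in tumor mice, with a median of -2.12, and -4.02 to -2.50 cycles in tumor-free mice, with a median of -3.76. A value nearer 0 means relatively more of the 3p arm. The arm difference averaged -2.21 ± 0.93 cycles in the tumor mice, against -3.51 ± 0.53 cycles without tumors (SD, n = 7 each), 1.31 cycles apart. Of the tumor mice 4 lay above all tumor-free mice, so the separation of the groups was not complete on this measure. In wild-type mice the arm difference was -2.51, -1.93 and -2.18 cycles, within the range of the tumor mice and above 6 of the 7 tumor-free mice. The arm difference contains miR-339-3p itself and was not tested.

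**Figure D2:**
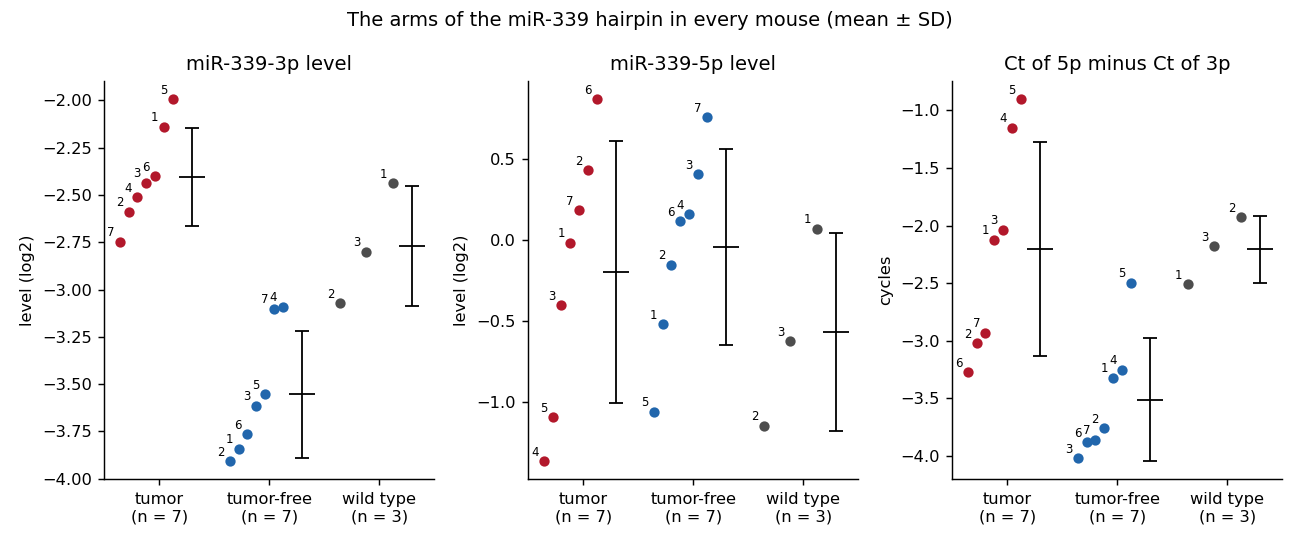
Level of miR-339-3p and of miR-339-5p (log2) and the Ct of the 5p arm minus that of the 3p arm (cycles) in tumor, tumor-free and wild-type mice. Points are mice, numbered by replicate, with mean ± SD beside each group. The 5p levels of tumor and tumor-free mice overlap, and the arm difference is near -2.21 cycles in tumor and in wild-type mice and near -3.51 cycles in tumor-free mice.

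miR-326-3p had its lowest levels in wild-type mice. Its level in tumor mice was -2.28 at the lowest, -1.43 at the median and 1.60 at the highest. In tumor-free mice it was -2.86, -2.04 and -1.58, and the wild-type mice had -3.37, -3.23 and -4.15. On this scale all transgenic mice, with and without tumors, lay above all 3 wild-type mice, whereas 4 of 7 tumor mice lay above all tumor-free mice. On unscaled Ct the groups overlapped. Tumor mice had 27.1 to 33.9 cycles, tumor-free mice 30.8 to 32.4 and wild-type mice 30.4 to 34.1.

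Tumor mice averaged -1.02 ± 1.27 for miR-326-3p (SD, n = 7) and wild-type mice -3.58 ± 0.49 (SD, n = 3). The log2 difference of 2.56 (SE 0.61, 5.91-fold) passed, at a limma adjusted p of 0.0159. In this comparison 28 of 338 assays passed (8.28%), 14 of them higher (4.14%), and 85 (25.1%) had an unadjusted p under 0.05. All 7 tumor mice lay above all wild-type mice for 18 assays (5.33%) and below them for 13 (3.85%). miR-326-3p did not pass by limma on raw Ct (1.18, adjusted p = 0.48), with spike-ins (1.29, adjusted p = 0.49) or without wild-type replicate 3 (2.28, adjusted p = 0.081). The median of all assays was -1.22 with raw Ct and -1.08 with spike-ins. By exact permutation the adjusted p of miR-326-3p was 0.22. No unadjusted p can lie below 0.00833 there, and no assay had an adjusted p below 0.20, so that run cannot decide.

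Tumor-free mice averaged -2.03 ± 0.41 for miR-326-3p (SD, n = 7), and their log2 difference from wild-type mice of 1.55 (SE 0.61, 2.93-fold) did not pass (limma adjusted p = 0.18). For 23 of 338 assays (6.8%) all 7 tumor-free mice lay above all wild-type mice, as they did here. The difference was 0.53 with raw Ct and 0.41 with spike-ins, where the median of all 338 assays was -1.07 and -1.19.

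Between tumor and tumor-free mice miR-326-3p differed by 1.01 (SE 0.47, 2.02-fold). Tumor replicate 5, whose label has the question mark, had the highest level, 1.60, and the next tumor mouse had -0.73. Without that mouse the difference was 0.57. Within the mice whose values have 2 endings it was 1.41, and with 1 ending it was -0.49, from 1 tumor and 3 tumor-free mice. With the number in the mice's labels as a block, over the 6 transgenic mice whose number occurs in both groups, it was 0.31. Of the 338 assays, 24 had a difference further above 0, and those below 0 are not counted in this.

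miR-330-3p, the other arm of the hairpin whose 5p arm shares the seed of miR-326-3p, differed by 0.24 between tumor and tumor-free mice (SE 0.38, limma adjusted p = 0.78). It differed by -0.11 between tumor and wild-type mice (SE 0.49, limma adjusted p = 0.92) and by -0.34 between tumor-free and wild-type mice (SE 0.49, limma adjusted p = 0.69). Its level was -3.02 to -1.92 in tumor mice, -3.36 to -2.20 in tumor-free mice and -3.30 to -0.74 in wild-type mice.

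miR-489-3p lay near the detection limit in the mice without tumors and was uneven among those with them. Its level was -6.47 at the lowest, -2.81 at the median and 2.38 at the highest in tumor mice, against -7.34, -5.81 and -5.15 in tumor-free mice. The wild-type levels were -7.35, -5.91 and -6.39. Tumor replicates 1, 2, 4, 5 and 6 lay above all tumor-free mice, at -2.05, -3.86, -1.97, -2.81 and 2.38, while tumor replicates 3 and 7, at -5.34 and -6.47, lay within the range of the tumor-free mice.

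In cycles, miR-489-3p reached its threshold at 27.4 to 35.1 in tumor mice, 33.6 to 36.9 in tumor-free mice and 34.0 to 36.4 in wild-type mice. On unscaled Ct the groups thus overlapped. Tumor replicates 4, 5 and 6, at 32.2, 31.5 and 27.4 cycles, came before all tumor-free mice. Tumor replicates 1 and 2, at 33.7 and 34.0 cycles, did not. Replicate 1 also had the highest mean Ct of the shared assays, 31.7, and the fewest assays detected, 312. The highest Ct of any assay in the table is 36.998, so the levels in mice without tumors lie close to the end of the measured range. A Ct below 35 was reached in 6 of 7 tumor mice, 2 of 7 tumor-free mice and 2 of 3 wild-type mice. With 35 as the detection limit the miRNA had too few values in tumor-free mice to be tested.

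The mean level of miR-489-3p was -2.87 ± 2.86 in the tumor mice, against -5.93 ± 0.77 in the tumor-free group (SD, n = 7 each), a log2 difference of 3.06 (SE 0.92, 8.32-fold). No tested assay had a larger difference in this comparison, and only 3 had a larger SD among the tumor mice. Without tumor replicate 6 the difference was 2.18, and within the mice whose values have 2 endings it was 2.94. Against wild-type mice, which averaged -6.55 ± 0.73 (SD, n = 3), the tumor mice differed by 3.68 (SE 1.18, 12.8-fold), which did not pass (limma adjusted p = 0.055). It passed without tumor replicate 3, 6 or 7, at differences of 4.09, 2.80 and 4.28 (adjusted p = 0.0311, 0.0398 and 0.022). It also passed with the median as the scaling (3.79, adjusted p = 0.046). Of 7 tumor mice, 6 lay above all wild-type mice. The tumor-free mice differed from wild-type mice by 0.62 (SE 1.18, limma adjusted p = 0.77) and overlapped them, 4 of 7 lying above all 3, and the sign turned with raw Ct (-0.40) and spike-ins (-0.52).

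miR-425-5p, which has the seed of miR-489-3p and is encoded elsewhere, reached its threshold earlier and spread less among the tumor mice, with an SD of 0.75. Its level was 1.95 to 3.65 in tumor mice with a median of 2.82, 1.04 to 2.82 in tumor-free mice with a median of 2.08, and 1.71, 3.66 and 2.37 in wild-type mice. The difference between tumor and tumor-free mice was 0.68 (SE 0.42, limma adjusted p = 0.43). Against wild-type mice it was 0.22 for tumor mice (SE 0.55, limma adjusted p = 0.84) and -0.46 for tumor-free mice (SE 0.55, limma adjusted p = 0.64). miR-425-5p is also 1 of the 4 reference miRNAs of an alternative scaling.

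**Figure D3:**
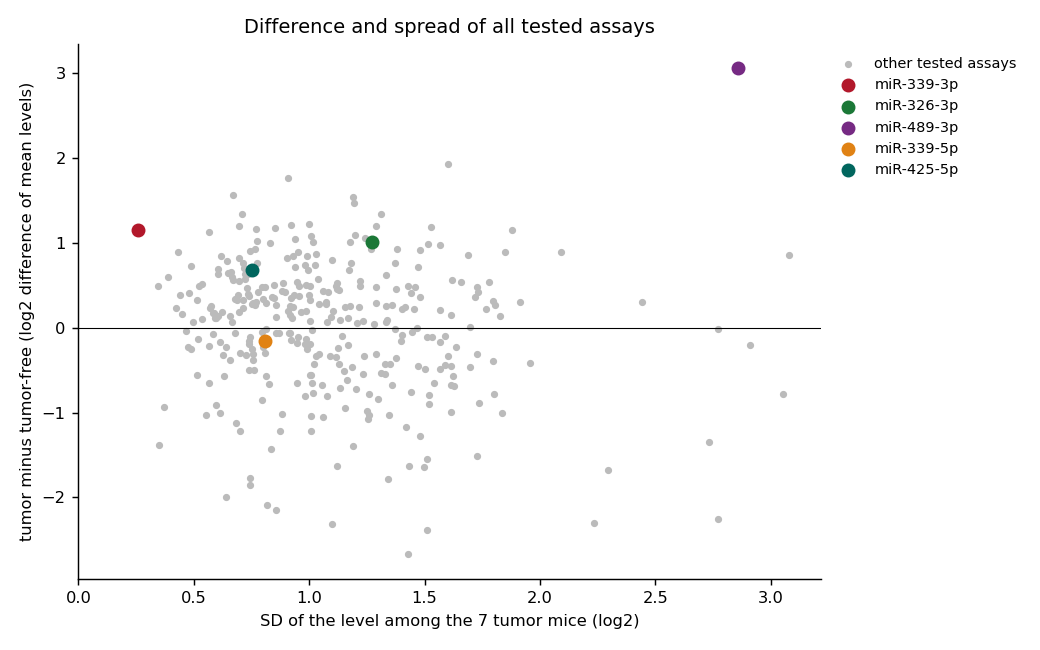
Difference between tumor and tumor-free mice (vertical axis, log2 difference of mean levels) against the SD of the level among the 7 tumor mice (horizontal axis, log2) for the 338 tested assays. miR-489-3p stands at the top with a difference of 3.06 and an SD of 2.86, miR-339-3p at the far left with a difference of 1.15 and an SD of 0.26, and miR-326-3p between them.

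The tumor mice with the highest levels were not the same for the 3 miRNAs. Tumor replicate 5 was highest for miR-339-3p and miR-326-3p and ranked 4 of 7 for miR-489-3p. Tumor replicate 6 was highest for miR-489-3p and ranked 3 for miR-339-3p. Tumor replicate 7 was lowest for both miR-339-3p and miR-489-3p, and tumor replicate 1, lowest for miR-326-3p, ranked 2 for miR-339-3p and 3 for miR-489-3p.

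Relations among the miRNAs were computed over the 17 mice with each group's mean taken off, so that the contrast behind their choice was removed. For miR-339-3p and miR-326-3p, r was 0.33 (permutation p = 0.173), rho was 0.25 (permutation p = 0.348), and leaving out the 2 mice farthest from the median gave r = 0.28. For miR-339-3p and miR-489-3p, r was 0.11 (permutation p = 0.661), rho was 0.10 (permutation p = 0.693), and leaving out the 2 mice farthest from the median gave r = -0.06. For miR-326-3p and miR-489-3p, r was 0.10 (permutation p = 0.773), rho was -0.06 (permutation p = 0.844), and leaving out the 2 mice farthest from the median gave r = -0.04. None of these pairs passed in the family of 9 relations (adjusted p = 0.76, 0.92 and 0.92). They were not computed within the mice of 1 ending, which number 4. Within the 7 tumor mice alone, r was 0.48, 0.37 and 0.12 for these pairs in the same order, and within the 7 tumor-free mice it was 0.39, -0.15 and -0.08.

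**Figure D4:**
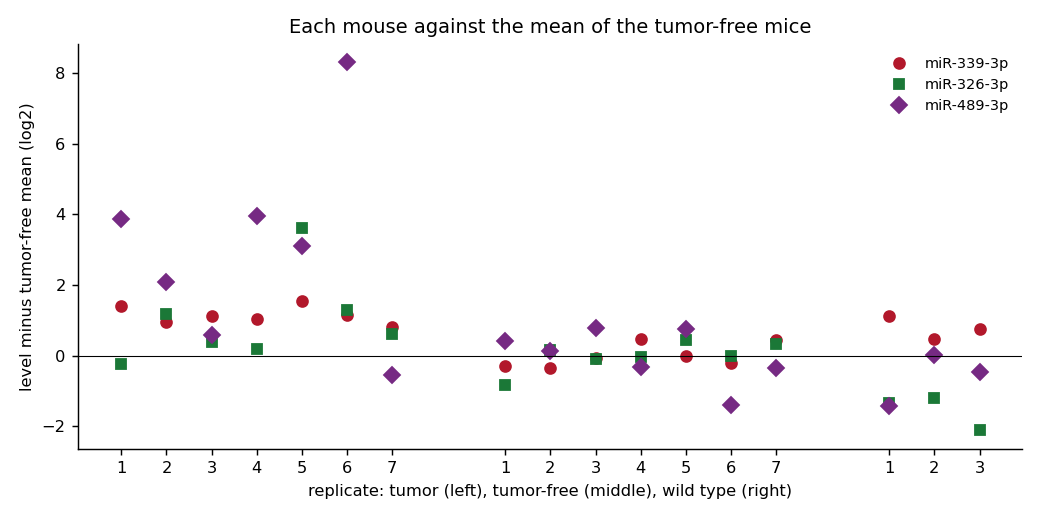
Level of each miRNA minus its mean in the tumor-free mice (log2) for every mouse, with tumor mice at the left, tumor-free mice in the middle and wild-type mice at the right. In the tumor mice the miR-489-3p points spread most widely, and tumor replicates 5 and 6 hold the highest points of miR-326-3p and miR-489-3p.

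No relation of the 3 miRNAs with red blood cell RNA or with the amount of template passed with the panel-mean scaling. Each level contains the mean Ct of the shared assays by definition, so this scaling takes off the amount of template in advance. The relations with the mean Ct therefore cannot show whether the amount of template matters. Against the hemolysis index, r was -0.25 for miR-339-3p (permutation p = 0.338), rho was -0.24 (permutation p = 0.349), and leaving out the 2 mice farthest from the median gave r = -0.11. For miR-326-3p r was 0.10 (permutation p = 0.818), rho was 0.05 (permutation p = 0.867), and leaving out the 2 mice farthest from the median gave r = 0.27. For miR-489-3p r was 0.11 (permutation p = 0.757), rho was 0.25 (permutation p = 0.387), and leaving out the 2 mice farthest from the median gave r = 0.01. Against the mean Ct of the shared assays, r was 0.0014 for miR-339-3p (permutation p = 0.996), rho was -0.01 (permutation p = 0.982), and leaving out the 2 mice farthest from the median gave r = -0.34. For miR-326-3p r was -0.31 (permutation p = 0.292), rho was -0.22 (permutation p = 0.432), and leaving out the 2 mice farthest from the median gave r = -0.27. Within groups this r of miR-326-3p was -0.52 in the 7 tumor mice and 0.79 in the 7 tumor-free mice, of opposite sign, and the difference between them was not tested. For miR-489-3p r was 0.29 (permutation p = 0.33), rho was 0.33 (permutation p = 0.239), and leaving out the 2 mice farthest from the median gave r = 0.04. The adjusted p of these 6 relations ran from 0.762 to 0.996. Scaled to the 4 reference miRNAs, miR-339-3p did go with the hemolysis index (r = -0.91, permutation adjusted p = 0.00018), and its difference between tumor and tumor-free mice was then 0.77. With the hemolysis index as a covariate the differences between tumor and tumor-free mice were 1.13 for miR-339-3p, 1.03 for miR-326-3p and 3.11 for miR-489-3p.

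The assays whose levels went most closely with each miRNA across mice, by Pearson's r with group means taken off, are given as a description. For miR-339-3p they were miR-137-3p (r = 0.83, rho = 0.89, 16 mice), miR-1949 (r = 0.82, rho = 0.79, 16 mice) and miR-361-5p (r = 0.66, rho = 0.56, 17 mice). For miR-326-3p they were miR-151-5p (r = 0.76, rho = 0.48), miR-22-3p (r = 0.74, rho = 0.45) and miR-532-5p (r = 0.74, rho = 0.77), each over 17 mice. For miR-489-3p they were the rat assay miR-196c-5p (r = 0.67, rho = 0.52, 14 mice), miR-350-3p (r = 0.65, rho = 0.48, 17 mice) and miR-467e-5p (r = 0.57, rho = 0.31, 14 mice). These are the 3 highest of 332 assays compared for each miRNA, and all share the serum sample and the panel scaling.

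**Figure D5:**
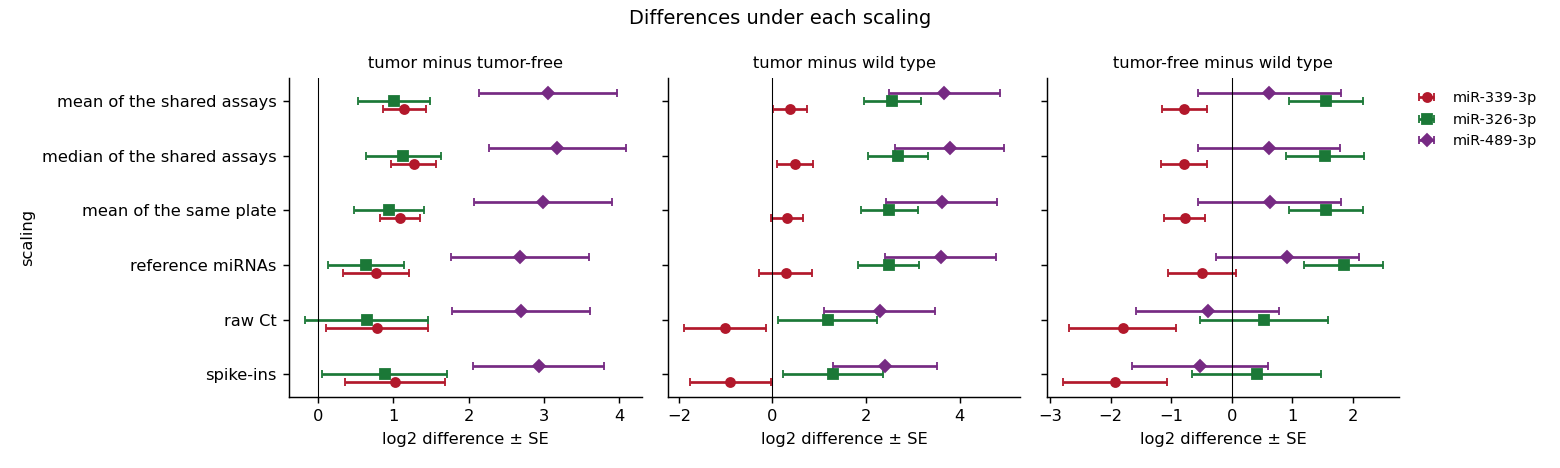
Log2 difference (± SE) of miR-339-3p, miR-326-3p and miR-489-3p in tumor against tumor-free, tumor against wild-type and tumor-free against wild-type mice under 6 scalings. The scaling drawn as mean of the same plate uses sets of assays split by their decimal endings, which no label names as plates. The differences between tumor and tumor-free mice are above 0 under every scaling drawn, whereas that of miR-339-3p between tumor and wild-type mice is 0.37 with the panel mean and -1.01 with raw Ct.

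miRNAs known for particular sources give the setting of these values. In the comparison of tumor with tumor-free mice 5 of 338 assays passed (1.48%), 1 higher and 4 lower, and the median of all assays was a log2 difference of 0.14. Of 6 tested miRNAs of skeletal and heart muscle 0 passed (median -0.28), with -0.02 for miR-133b-3p and -0.21 for miR-133a-3p. Of 7 tested neuron miRNAs 0 passed (median 0.54) and 4 had a difference above 0, such as 0.91 for miR-128-3p. Below 0 were miR-218-5p at -0.55, miR-219a-5p at -0.23 and miR-137-3p at -0.13. Of 6 tested lymphocyte miRNAs 0 passed (median -0.67), with -1.34 for miR-142-3p. Of 6 tested red blood cell miRNAs 0 passed (median 0.33), and of 5 tested platelet miRNAs 0 passed (median 0.52). Of 5 tested liver miRNAs 1 fell (median -1.39), and of 13 miRNAs often raised in tumors 0 passed (median 0.14). Of these 13, 7 had a difference above 0, such as 1.16 for miR-10b-5p, 1.02 for miR-210-3p and 0.89 for miR-21a-5p, and 6 had one below 0, such as -1.78 for miR-182-5p, -1.43 for miR-31-5p and -1.04 for miR-183-5p. At an unadjusted limma p under 0.05, which 57 of all 338 assays (16.9%) reached, the passing members were 0 of 6 for muscle, 2 of 7 for neuron, 1 of 6 for lymphocyte, 0 of 6 for red blood cell, 0 of 5 for platelet, 4 of 5 for liver and 6 of 13 for the tumor list, which are the 6 just named, in both directions, and which apart from miR-21a-5p were named after their values were seen.

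In the comparison of tumor with wild-type mice, where miR-326-3p passed, 8.28% of all assays were called, 25.1% had an unadjusted p under 0.05, and the median of all assays was 0.19. Of 5 platelet miRNAs 1 rose, miR-223-3p, which is also abundant in myeloid cells, by 1.96 (limma adjusted p = 0.0333). Of 7 neuron miRNAs 1 rose, miR-128-3p, by 2.20 (limma adjusted p = 0.0203), while the neuron list had a median of 0.37 with 4 of 7 above 0. Of 6 lymphocyte miRNAs 1 rose and 1 fell (median 0.72). The one that rose was miR-146a-5p, at 2.22 (limma adjusted p = 0.0419). The one that fell was miR-142-3p, at -3.91 (limma adjusted p = 0.0467). Of 5 liver miRNAs 3 fell, among them miR-192-5p at -1.57 (limma adjusted p = 0.0199). The muscle list had a median of 1.73 and the red blood cell list one of -0.61, with 0 of 6 passing in each (1 and 0 at an unadjusted p under 0.05). Of 13 miRNAs often raised in tumors 1 fell (median 0.24). The part of these sources in the levels of the 3 miRNAs was not tested.

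In the comparison of tumor-free with wild-type mice 2 of 338 assays passed (0.592%), and 0 members of any of the 7 lists passed by limma. The muscle list had the highest median, 1.95, and the red blood cell list the lowest, -1.02, against 0.03 for all assays, with 2 of 6 members of each at an unadjusted p under 0.05, which 76 of all 338 assays (22.5%) reached.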

How the data were processed

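Serum miRNAs of 17 mice were measured by SYBR Green quantitative PCR on Exiqon serum panels. The authors deposited Ct values that were not normalized, 1 column per mouse, per the labels. The sources used here give no other processing. No counts exist, so depth does not apply and the number of mice limits the precision. The labels name separate mice, and the replicate numbers used here follow the order of the samples within each group.

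Levels were the mean Ct of the 252 assays detected in all mice minus the assay's own Ct (log2). An assay was tested when detected in at least 5 tumor, 5 tumor-free and 2 wild-type mice, which kept 338 and set 19 aside. Differences came from limma 3.58.1 (lmFit and eBayes, R 4.3.3), with the 3 groups in 1 model and Benjamini-Hochberg adjustment over the 338 assays at 0.05. The fit was tested on simulated data. Permutations and figures used Python 3.11.15, scipy 1.17.1 and matplotlib 3.10.9. The comparisons share mice.

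The members, the other arms and seed relatives, the 7 source lists and the tests were chosen with earlier results of these data known. Named assays were the members, miR-339-5p, miR-425-5p, miR-330-3p, the 3 assays most like each member and the list examples. The arm difference was chosen after seeing the data. Alternatives were other scalings, missing values at Ct 37, a Ct limit of 35, no filter, trend and robust settings, a hemolysis covariate, exact permutation and leaving out each mouse. Exact permutation against the 3 wild-type mice has no p below 0.00833, so an adjusted call there needs many assays at that floor at once. The same-set scaling took the mean over the shared assays of the same set. The sets, of 245 and 120 assays, were split by the decimal endings, and no label says what those mark. Leaving out the 4 mice whose values have 1 ending, and the number of endings as a covariate, were added after seeing the data.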

Additional observations from a re-analysis of the deposited data

Results flagged for a closer look

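In 14 groups of 7 values checked for a mouse far from the rest, 2 were found by Dixon's criterion, and chance gives about 1 in 20 groups. For miR-326-3p in tumor mice, replicate 5 had a level of 1.60, with a gap to the next mouse of 0.601 of the group's range. For miR-326-3p in tumor-free mice, replicate 1 had a level of -2.86, with a gap of 0.581 of the range.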

How the results depend on the processing

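Between tumor and tumor-free mice the 3 miRNAs kept their direction under each other scaling, filter and covariate run and without each mouse, with differences of 1.08 to 1.23 for miR-339-3p, 0.57 to 1.22 for miR-326-3p and 2.18 to 3.66 for miR-489-3p without each mouse in turn. The exception was miR-326-3p within the 4 mice of 1 ending, at -0.49. miR-339-3p differed by 0.77 (SE 0.44) with the 4 reference miRNAs and 0.79 (SE 0.68) with raw Ct. In the same order, miR-326-3p differed by 0.63 (SE 0.50) and 0.65 (SE 0.82), and miR-489-3p by 2.68 (SE 0.92) and 2.70 (SE 0.92). Between tumor and wild-type mice leaving out each mouse gave 0.22 to 0.53 for miR-339-3p, 2.13 to 2.77 for miR-326-3p and 2.80 to 4.28 for miR-489-3p, and miR-326-3p lost its call without wild-type replicate 3. miR-339-3p turned to -1.01 with raw Ct and -0.90 with spike-ins, miR-326-3p was not called at 1.18 with raw Ct, 1.29 with spike-ins and 2.56 by exact permutation, and miR-489-3p was called at 3.79 with median scaling. Between tumor-free and wild-type mice leaving out each mouse gave -0.93 to -0.62, 1.27 to 1.73 and 0.22 to 0.94 for the same miRNAs in turn, and miR-489-3p turned to -0.40 with raw Ct and -0.52 with spike-ins.

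The limma call count between tumor and tumor-free mice, 5, became 0 with reference miRNAs (44 at an unadjusted p under 0.05), raw Ct (17), spike-ins (14), exact permutation (57) and without the 4 mice of 1 ending (30), and 13 with the hemolysis covariate. Without each mouse it ran from 2 (tumor-free replicate 1 or 6, tumor replicate 3 or 4) to 10 (tumor replicate 5), and it was 8 without tumor replicate 7, 3 when tumor-free replicate 3 was left out and 9 when tumor-free replicate 2 was. The 28 calls between tumor and wild-type mice became 13 with reference miRNAs, 15 with raw Ct, 8 with spike-ins, 0 by exact permutation (45 unadjusted) and 14 without the 4 mice, and 10 (without wild-type replicate 3) to 39 without each mouse, with 13 without wild-type replicate 2 and 16 without tumor replicate 2. The 2 calls between tumor-free and wild-type mice became 1 with median scaling, reference miRNAs, trend and robust settings, the endings covariate and without the 4 mice, 0 with raw Ct (63 unadjusted), spike-ins (73) and exact permutation (85), 7 with the same-plate scaling, 4 with missing values at 37 and 5 with the hemolysis covariate, and 1 to 9 without each mouse, namely 9 without wild-type replicate 1, 6 without tumor replicate 5 or tumor-free replicate 1, 5 without tumor replicate 4, 4 without tumor replicate 1, and 1 when tumor-free replicate 2, 3, 5, 6 or 7 or wild-type replicate 2 or 3 was left out.

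Of the 9 relations 0 passed with the panel mean, 1 with reference miRNAs, 3 with raw Ct and 3 with spike-ins. Those that passed were miR-339-3p with the hemolysis index (-0.91) with reference miRNAs, and, with raw Ct and spike-ins, miR-339-3p with miR-326-3p (0.87 and 0.89), miR-326-3p with the mean Ct (-0.85 and -0.79) and miR-339-3p with the mean Ct. miR-339-3p with the mean Ct had r of -0.24 with reference miRNAs, -0.96 with raw Ct, -0.92 with spike-ins and -0.071 with the same-set scaling. Raw Ct was taken here with its sign turned, so that higher means more template, and no mean Ct was taken off. The panel-mean level is the one that contains the mean Ct. miR-326-3p with the hemolysis index had -0.57 with reference miRNAs, -0.044 with raw Ct and -0.024 with spike-ins. miR-489-3p had -0.22 with the hemolysis index with reference miRNAs, and -0.27 and -0.26 with the mean Ct with raw Ct and spike-ins. The cause of these changes was not tested. With a Ct limit of 35 miR-489-3p was left out of the fit, since 2 of 7 tumor-free mice had a value. No paired analysis was possible over all mice, because the unexplained number in the transgenic labels occurs in both groups for 6 mice only. With that number as a block in those 6 mice, the difference between tumor and tumor-free mice was 1.10 for miR-339-3p, 0.31 for miR-326-3p and 2.48 for miR-489-3p, with no test.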
